A study of Drosophila melanogaster with 4 samples.

Results

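The X interior is the part of the Drosophila melanogaster X chromosome that lies away from both chromosome ends. It was taken as X 1000001 to 19422827 on release 5 of the genome, which leaves out 1 Mb at the telomere end and 3 Mb at the centromere end. Tiling these 18.4 Mb in 5 kb windows gave 3685 windows, of 33750 that tile all 14 sequences of the release. The windows were chosen by position alone, and the last of them holds the remaining 2827 bp. The samples were 2 H3K9me2 chromatin immunoprecipitations (ChIP replicates 1 and 2) from S2-DRSC, a male cell line derived from late embryos, and 2 inputs (chromatin without immunoprecipitation). H3K9me2 is dimethylation of lysine 9 of histone H3, recovered here with the antibody that the labels number 2. For each ChIP sample the authors deposited a list of enriched regions, called clusters, set against its own input, and a further list covers the series as a whole (the combined list). Both ChIP samples belong to 1 group in 1 cell line. The labels do not state that they are separate cultures, and their spread may be no more than technical.

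In Drosophila, H3K9me2 is laid down by histone methyltransferases such as Eggless and is bound by the chromatin protein HP1a, and the mark is best known from the repeat-rich heterochromatin around centromeres and from chromosome 4. Chromosome arms are gene-rich and carry less of it, in scattered blocks. The X of male cells is also the chromosome on which the dosage compensation complex acts, which acetylates histone H4 over active genes. Shares of bases in clusters are used throughout, because the lists give positions and a score for each cluster but no read counts. Read depth is thus unknown, and a base outside clusters is not shown to lack the mark.

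Of the X interior, H3K9me2 clusters held 18.03% in replicate 1, with 730 clusters, and 24.2% in replicate 2, with 893. The covered length was 3.32 Mb and 4.47 Mb, and the mean share was 21.1 ± 4.40% (SD, n = 2). The combined list covered 21.7% in 765 clusters. Most windows were empty, with 2530 windows (68.7%) free of clusters in replicate 1 and 2170 (58.9%) in replicate 2. Another 235 windows in replicate 1 and 360 in replicate 2 lay wholly inside a cluster or inside abutting ones. At least 50% of the window was covered in 638 and 837 windows. Along the X itself, the interior lay between its flanks, since clusters held 45.2% and 52.7% of the 3 Mb at the centromere end, and 5.86% and 10.7% of the 1 Mb at the telomere end. The name euchromatic interior therefore rests on position. The densest 1 Mb bin of the interior, at 39.8% and 45.0%, was covered less than the centromere end as a whole. Some shorter stretches described below were covered more than that end. They were picked for their coverage or their long clusters, and the centromere end was not searched in the same way.

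**Figure D1:**
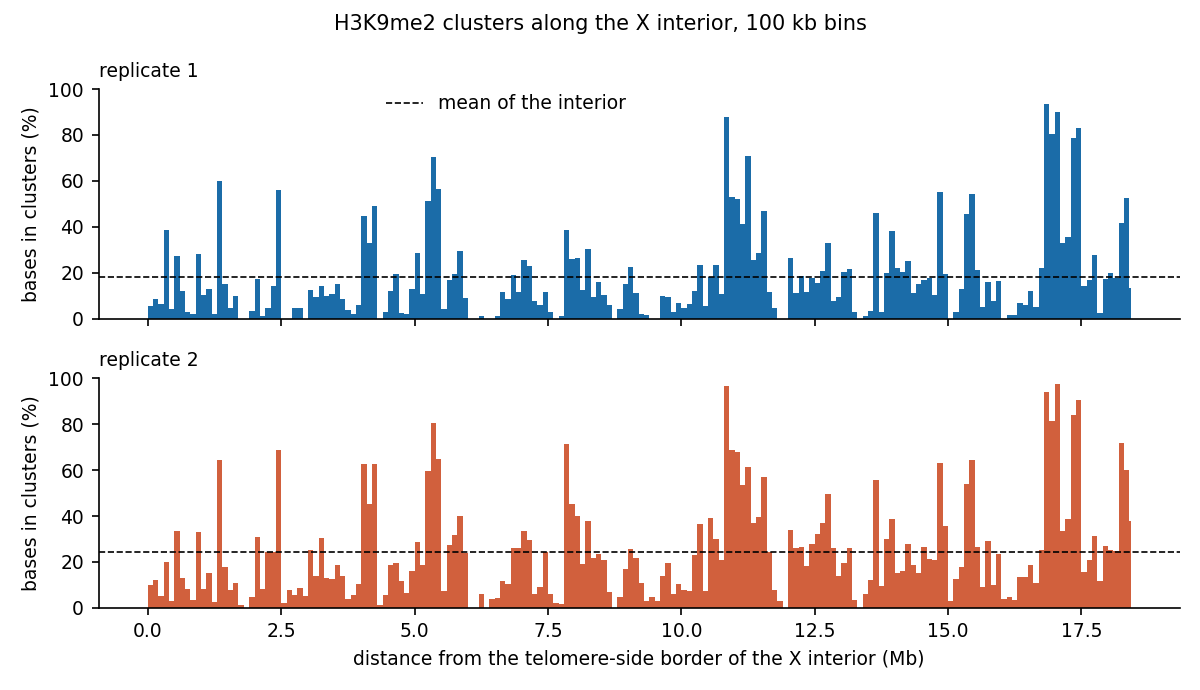
Share of bases in H3K9me2 clusters (%, y axis) in 100 kb bins against the distance from the telomere-side border of the X interior (Mb, x axis), for replicate 1 (top) and replicate 2 (bottom). The dashed line is the mean of the interior, 18.03% in replicate 1 and 24.2% in replicate 2; tall bins stand in the same places in both replicates.

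Coverage was uneven along the chromosome, and the peaks and troughs lay in the same places in both replicates. Among the 18 full 1 Mb bins, it ranged from 5.25% to 39.8% in replicate 1, with a median of 16.4%, and from 8.87% to 45.0% in replicate 2, with a median of 23.99%. The densest bin lay from 18 to 19 Mb and held 38 clusters in replicate 1 and 41 in replicate 2. The sparsest lay from 7 to 8 Mb, with 16 and 28 clusters. Other dense bins were those from 6 to 7 Mb (29.6% and 38.3%), from 12 to 13 Mb (28.2% and 35.1%) and from 11 to 12 Mb (24.5% and 33.7%). The bin from 6 to 7 Mb thus stood directly beside the sparsest bin. Low coverage was also found from 10 to 11 Mb (6.56% and 11.9%), from 4 to 5 Mb (9.18% and 14.7%) and from 2 to 3 Mb (11.8% and 13.2%). The last 422827 bp next to the centromere-side border, too short for a full bin, were covered at 31.9% and 44.98%. In every 1 Mb bin replicate 2 was covered more than replicate 1, with the smallest gap from 1 to 2 Mb (13.5% and 14.1%) and the largest from 13 to 14 Mb (17.2% and 29.1%). The spread between replicates reached at most 8.45 percentage points (SD, n = 2) in the 18 full bins, from 13 to 14 Mb, and 9.23 in the short last part. The difference between the densest and the sparsest bin was larger. These bins were picked as the extremes of the same values, so their difference is no test of unevenness.

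Coverage was highest towards the centromere. Of 3 equal parts of 6.14 Mb, the one on the centromere side had 23.2% of its bases in replicate 1 clusters and 29.7% in replicate 2 clusters. The middle part stood at 15.8% and 22.9%, and the telomere-side part at 15.01% and 20.2%. Cluster numbers did not follow the same order, with 247 and 299 in the centromere-side part, 254 and 319 in the middle and 229 and 275 on the telomere side. The number of long clusters did differ. Clusters of at least 20 kb numbered 10 and 18 in the centromere-side part, 2 and 7 in the middle and 3 and 4 on the telomere side. The densest 1 Mb bin alone held 7 of the 15 such clusters in replicate 1 and 9 of the 29 in replicate 2, and the mean number of long clusters was 14 without it, against 22 with it.

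Most clusters were short, but most covered bases lay in the longer ones. The median length was 2507 bp in replicate 1 and 2531 bp in replicate 2, and 75% of clusters were shorter than 4731 bp and 5301 bp. Clusters under 2 kb made up 39.2% of those in replicate 1 and 37.96% in replicate 2, yet they held 12.5% and 10.98% of the bases in X clusters. The 15 clusters of at least 20 kb in replicate 1 were 2.05% of its clusters and held 20.1% of the bases. In replicate 2, 29 such clusters, 3.25% of the list on X, held 24.7%. The shortest cluster was 1001 bp in each list, and shorter marked stretches, if any, are not in these lists.

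**Figure D2:**
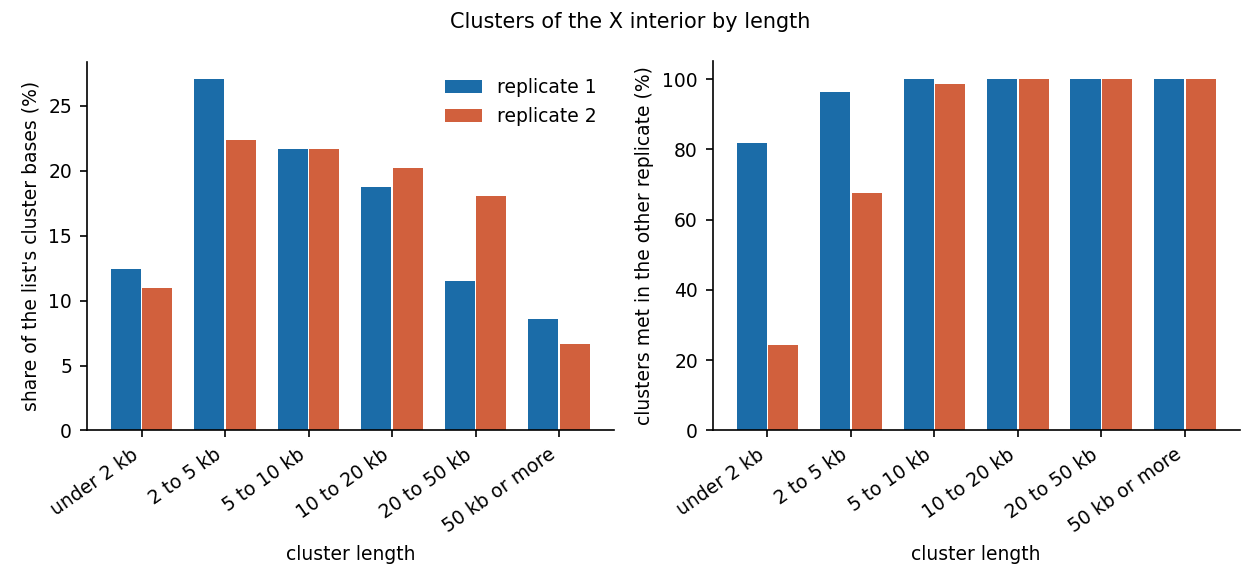
Clusters of the X interior by length class, for replicates 1 and 2. Left, share of each list's cluster bases (%); right, share of the clusters of a list that overlap a cluster of the other replicate by at least 1 bp (%), which is 24.2% for replicate 2 clusters under 2 kb and 81.8% for those of replicate 1.

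Clusters on the X lay close to each other. The median gap between neighbours was 5567 bp in replicate 1 and 5338 bp in replicate 2, and 48.2% of gaps in both lists were under 5 kb. Gaps under 1 kb numbered 180 of 729 in replicate 1 and 193 of 892 in replicate 2. In replicate 1, 490 clusters (67.1%) had a neighbour within 5 kb and 81 (11.1%) had none within 20 kb, and in replicate 2 the numbers were 618 (69.2%) and 73 (8.17%). When clusters within 5 kb were joined, replicate 1 gave 379 groups and replicate 2 gave 463. Groups of several clusters were 36.7% of these in replicate 1 and 40.6% in replicate 2, and the largest held 17 clusters in each list. Isolated clusters were shorter than those with a close neighbour, with medians of 2019 bp against 2600 bp in replicate 1 and 2208 bp against 2793 bp in replicate 2. In the class between, with the nearest neighbour at 5 to 20 kb, the medians were 2483 bp in replicate 1 and 2109 bp in replicate 2. The replicate 2 value was below that of its isolated clusters.

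Dense and sparse stretches were longer than single clusters. In 100 kb bins, replicate 1 had a median of 11.6% of bases covered and 19 empty bins of 184, and replicate 2 had a median of 18.8% and 7 empty bins. At least 50% of the bin was covered in 17 bins in replicate 1 and 25 in replicate 2, and the highest single values were 93.6% and 97.4%. The most covered 18 bins held 35.97% of all covered bases in replicate 1 and 30.4% in replicate 2. The shares of neighbouring 5 kb windows had a correlation of 0.66 in replicate 1 and 0.67 in replicate 2 (3684 pairs). The correlation was 0.25 and 0.24 at a distance of 50 kb (3675 pairs), 0.13 in both at 200 kb (3645 pairs) and 0.01 and 0.02 at 500 kb (3585 pairs). These values describe windows of the same map, and a cluster longer than a window enters several of them, so they carry no test.

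Long clusters were present in both replicates. All 15 clusters of at least 20 kb in replicate 1 overlapped replicate 2 clusters, which covered at least 96.8% of each. All 29 of replicate 2 overlapped replicate 1 clusters, with between 64.6% and 100% of their length covered and a median of 92.1%, and 21 were covered at 90% or more. Replicate 1 split 19 of the 29 into several clusters, up to 5. Replicate 2 met 4 of the 15 long replicate 1 clusters with several clusters, up to 3. The outermost edges of the matching clusters lay within 1 kb for 15 of the 30 edges of long replicate 1 clusters and for 38 of the 58 edges of long replicate 2 clusters.

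The 10 longest clusters of the combined list ranged from 34965 bp to 171023 bp, and 7 of them lay between 17806141 and 18724649. The longest, 171 kb at 17806141 to 17977163, was 1 cluster in each replicate. It started at 17806448 in replicate 1 and 17806079 in replicate 2 and ended at 17976885 and 17978021, so its ends differed by 369 bp and 1136 bp. The next longest, 80.3 kb at 11819777 to 11900074, was divided into 4 clusters in replicate 1 and 2 in replicate 2, which covered 98.3% and 99.7% of it. A 62.3 kb cluster at 18071003 to 18133291 was again 1 cluster in each replicate. The clusters at 18328064 to 18388771 (60.7 kb) and 18460620 to 18514374 (53.8 kb) were covered at 97.6% and 98.6% in replicate 1 and at 98.9% and 98.8% in replicate 2. Smaller members of the 10 outside this stretch lay at 16391446 to 16440276 (48.8 kb) and 14614507 to 14651972 (37.5 kb), with coverage of 94.8% and 93.2% in replicate 1 and 100% in replicate 2. The combined list covers the same samples, so the coverage of its clusters in the replicates is a description of them.

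Joining combined clusters within 5 kb of each other showed a different kind of long domain. The longest remained the single cluster of 171 kb, and the next, 136.7 kb at 17996578 to 18133291, joined 4 clusters with 95.02% of its bases covered. The other 3 of the 5 longest lay near 12 Mb, and the first and second of them joined many shorter clusters. The domain at 11923212 to 12041791 (118.6 kb) joined 17 clusters over 82.7% of its length, with 19 clusters over 67.2% of it in replicate 1 and 15 over 85.5% in replicate 2. The domain at 12164157 to 12278236 (114.1 kb) joined 12 clusters, with 84.5% and 81.9% covered in replicates 1 and 2. The domain at 11788228 to 11900074 (111.8 kb) joined only 6, among them the 80.3 kb cluster described above, with 86.4% and 93.3% covered.

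The longest clusters and domains thus fell mainly in 2 zones, which were set apart after their positions had been seen. The zone from 17806141 to 18724649 spanned 918.5 kb, or 4.99% of the interior, and held 16.5% of the covered bases of replicate 1 and 12.99% of those of replicate 2. It was covered at 59.8% and 63.2%, by 28 clusters in each replicate. The zone from 11788228 to 12278236, 490.01 kb or 2.66% of the interior, had 62.8% of its bases in replicate 1 clusters and 71.97% in replicate 2 clusters. Its coverage was similar but was made of 56 and 48 clusters over a shorter length. Outside both zones clusters held 14.5% of the interior for replicate 1 and 20.8% for replicate 2.

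**Figure D3:**
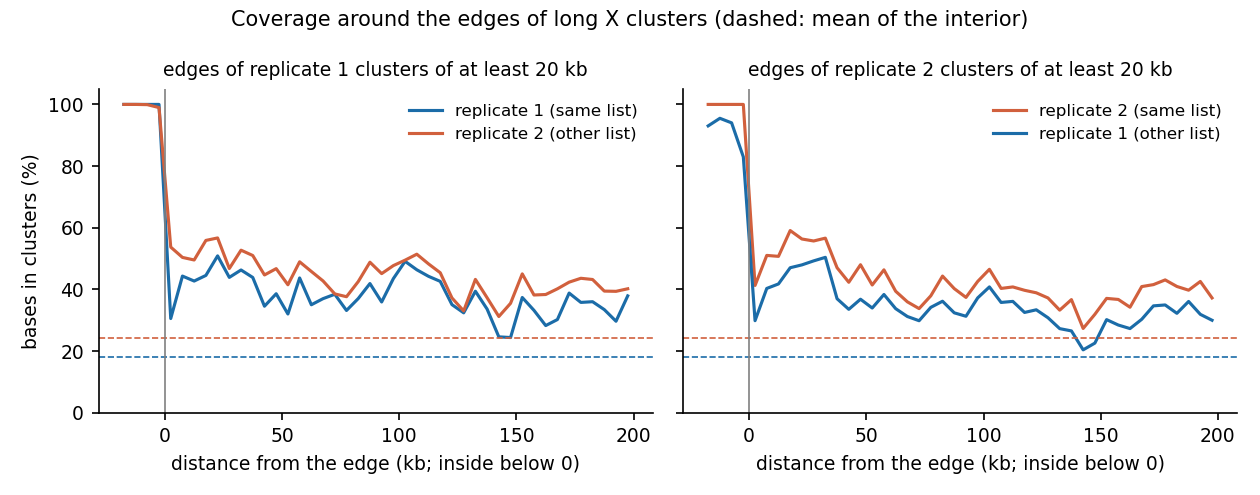
Share of bases in clusters (%, y axis) in 5 kb steps from the edges of X clusters of at least 20 kb (kb, x axis; negative values lie inside), for edges taken from replicate 1 (left, 30 edges) and replicate 2 (right, 58 edges). Lines give the same list and the other replicate, and dashed lines give the mean of the interior, and all 160 plotted steps outside the edges lie above them.

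Coverage beyond the edges of long clusters remained above the mean of the interior, also in the replicate that had not supplied the edges. Over the first 50 kb outside replicate 1 clusters of at least 20 kb, 50.8% of bases lay in clusters of replicate 2, against 24.2% over the whole interior. Over the first 50 kb outside such replicate 2 clusters, 41.4% lay in replicate 1 clusters, against 18.03%. From 50 to 200 kb the values were 42.1% for replicate 2 and 32.1% for replicate 1. Without the long clusters of the densest 1 Mb bin, which lie near each other, coverage was 53.3% and 39.5% over the first 50 kb and fell to 30.2% and 23.8% from 50 to 200 kb. The 8 and 20 long clusters that remained included the 171 kb cluster, whose midpoint lies outside that bin. Its flank reaches into the bin, so these values are not free of that dense stretch. Within the first 5 kb outside an edge the own list stood at 30.6% for replicate 1 and 41.3% for replicate 2. This was lower than in each later 5 kb step up to 50 kb, since a gap necessarily follows an edge. Some steps beyond 50 kb were lower still, down to 24.4% for replicate 1 and 27.4% for replicate 2.

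Stretches free of clusters in all 3 lists made up 73.7% of the X interior. There were 892 of them with a median length of 5625 bp. Of these, 61 were at least 50 kb and held 29.9% of the interior, and 16 were at least 100 kb and held 12.8%. The 2 longest were nearly equal, at 217.7 kb from 6988862 to 7206547 and 217.3 kb from 9677453 to 9894713. They were followed by 205.1 kb at 14273342 to 14478454, 192.1 kb at 7260194 to 7452295 and 167.02 kb at 2787325 to 2954339. The first and the fourth were separated by only 53.6 kb, which held 1 cluster of 1001 bp in replicate 1 and 3 clusters of 1194 to 3144 bp in replicate 2. Long free stretches were spread over the chromosome, with between 1 and 7 stretches of at least 50 kb in each full 1 Mb bin and the most, 7, from 3 to 4 Mb. Even the densest bin, from 18 to 19 Mb, held 3 of them. The longest run of free windows was 65 windows (325 kb) in replicate 1 and 51 windows (255 kb) in replicate 2.

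The replicates shared most of what replicate 1 marked on the X. Replicate 2 also covered 91.9% of what replicate 1 covered, and replicate 1 covered 68.3% of what replicate 2 covered, with 3.05 Mb in both, 0.268 Mb in replicate 1 only and 1.41 Mb in replicate 2 only. The shared part was 64.5% of the bases covered in either. Both lists were free of clusters in 2113 windows, 1098 windows held clusters of both, 57 of replicate 1 only and 417 of replicate 2 only. Opposite extremes were nearly absent: no window was fully covered in replicate 1 and free in replicate 2, and 1 window was the reverse. In the combined list, 539 of the 765 X clusters (70.5%) met clusters of both replicates and had a median length of 4231 bp. Another 156 met replicate 2 only, with a median of 1458 bp, 37 met replicate 1 only, with a median of 1485 bp, and 33 met neither list, with a median of 1115 bp. Across windows the shares had a Pearson correlation of 0.89 and a Spearman correlation of 0.84 (3685 windows of the same 2 samples, given as a description).

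Most bases covered by replicate 2 only lay within 5 kb of a replicate 1 cluster, and fewer lay within 1 kb. Of the 893 X clusters of replicate 2, 362 (40.5%) met no replicate 1 cluster, with a median length of 1650 bp. Of the bases in replicate 2 only, 41.3% lay within 1 kb of a replicate 1 cluster and 72.2% within 5 kb. Of all X interior bases outside replicate 1 clusters, 7.55% lay within 1 kb of one and 26.9% within 5 kb. Replicate 2 had the higher share in 168 of 185 bins of 100 kb, replicate 1 in 10, and the median difference was 5.07 percentage points. The bins furthest apart, named after their values were seen, were 8800001 to 8900000 (38.6% in replicate 1 and 71.4% in replicate 2) and 19200001 to 19300000 (41.8% and 71.6%). The largest difference the other way was at 1300001 to 1400000, with 38.4% in replicate 1 and 20.1% in replicate 2. Agreement was higher for longer clusters. Of the replicate 2 clusters under 2 kb, 82 of 339 (24.2%) met a replicate 1 cluster, against 214 of 317 (67.5%) at 2 to 5 kb and 139 of 141 (98.6%) at 5 to 10 kb. In replicate 1 the shares were 81.8%, 96.4% and 100%. Longer clusters also have more room to meet the other list.

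Scores, the authors' own value for each cluster on a scale the files do not define, were higher for longer clusters within each list. In replicate 1 the median score was 0.919 for clusters under 2 kb, 1.34 at 5 to 10 kb and 2.21 for the 3 clusters of 50 kb or more. In replicate 2 these medians were 0.995, 1.48 and 2.60. The rank correlation of length and score was 0.54 over 730 clusters in replicate 1 and 0.51 over 893 in replicate 2. Of the 5 X clusters with the highest scores in replicate 1, all were at least 98.6% covered by replicate 2 clusters. The highest score, 2.54, belonged to a 19.2 kb cluster at 2318229 to 2337458, and the longest X cluster ranked next with 2.24. In replicate 2 the 2 highest scores, 3.14 and 2.97, belonged to clusters of only 1050 bp (5216817 to 5217866) and 1081 bp (16242952 to 16244032). Neither was met by a replicate 1 cluster, and neither lay in the combined list. Among the 90 replicate 2 clusters in the upper 10% by score, 15 were shorter than 2 kb, of which 2 met a replicate 1 cluster and 1 met a combined cluster. Of the 73 such replicate 1 clusters, 6 were shorter than 2 kb. Among these 6, 3 met a replicate 2 cluster and 5 met a combined cluster.

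**Figure D4:**
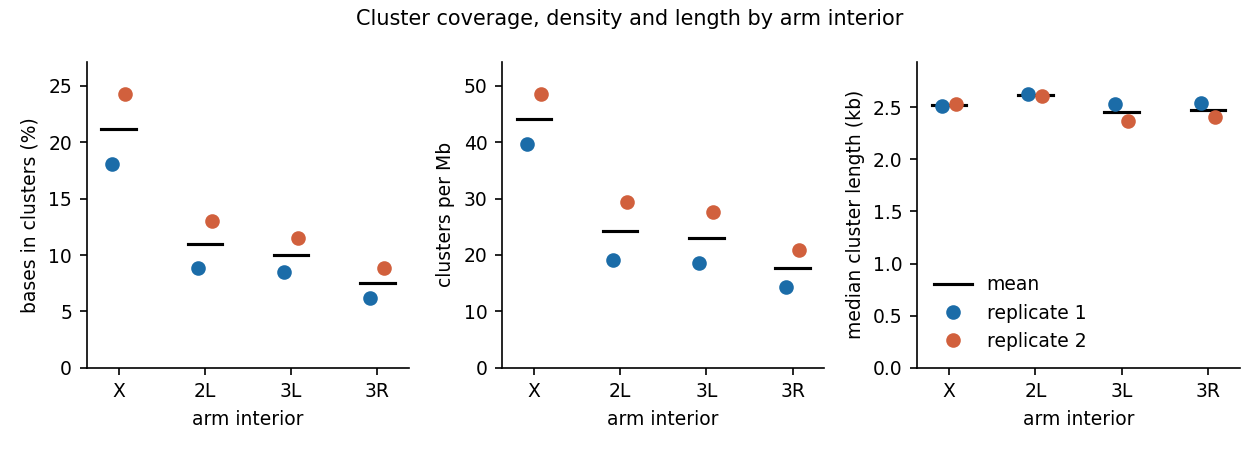
Bases in clusters (%), clusters per Mb and median cluster length (kb) for the X interior and the interiors of 2L, 3L and 3R with the same margins; points are replicates 1 and 2 and bars their mean. X stands above the other arms in the first 2 panels, at 21.1 ± 4.40% (SD, n = 2) in the first, and among them in the third.

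Set beside the interiors of 2L, 3L and 3R with the same margins, the X interior had more clusters of about the same median length. Its covered share, 18.03% in replicate 1 and 24.2% in replicate 2, stood beside 8.87% and 13.01% on 2L, 8.53% and 11.5% on 3L and 6.19% and 8.83% on 3R. The ratio to the mean of these arms was 2.29 in replicate 1 and 2.18 in replicate 2. Cluster density was 39.6 and 48.5 per Mb on X, 19.2 and 29.4 on 2L, 18.5 and 27.6 on 3L and 14.4 and 20.96 on 3R. Median length on X was between 0.956 and 1.07 times that on each of the 3 arms in the same replicate. The mean length on X was 0.985 to 1.06 times that of the other arms in replicate 1 and 1.13 to 1.199 times in replicate 2. On every arm the difference in covered share from X, between 9.16 and 15.4 percentage points, was larger than the SD between replicates. Taken within each replicate, the X share exceeded that of 2L by 10.2 ± 1.47 points, of 3L by 11.1 ± 2.30 points and of 3R by 13.6 ± 2.53 points (SD, n = 2), and X was higher in 2 of 2 replicates each time. An exact two-sided permutation test of these paired differences gave p = 0.5 for each arm, the smallest that 2 replicates allow.

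**Figure D5:**
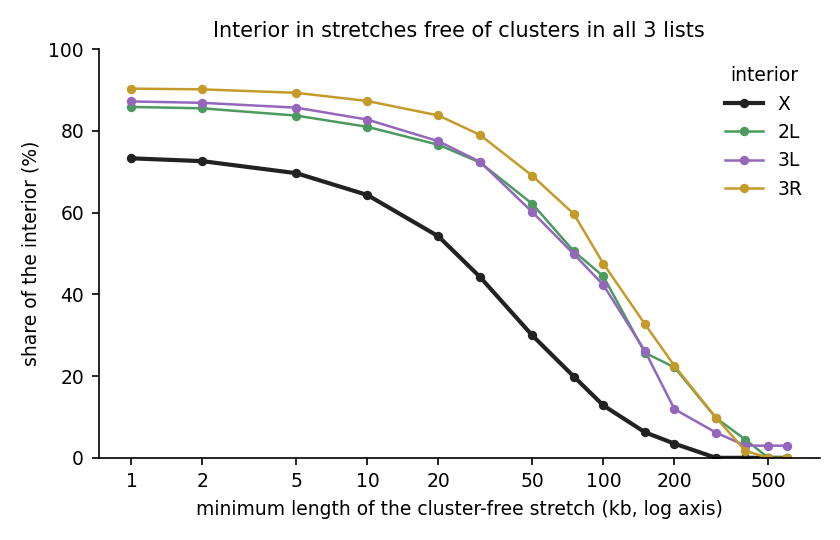
Share of each arm interior (%, y axis) that lies in cluster-free stretches of at least a given length (kb, log x axis), where free means without clusters in all 3 lists. At 50 kb the share is 29.9% on X, against 62.2% on 2L, 60.1% on 3L and 69.03% on 3R.

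Cluster-free stretches on X were shorter than on those arms. The longest was 217.7 kb on X, against 425.98 kb on 2L, 611.8 kb on 3L and 408.9 kb on 3R. Stretches of at least 100 kb numbered 8.68 per 10 Mb on X and between 25.2 and 25.9 per 10 Mb on the other arms. Clusters with no neighbour within 20 kb were 11.1% of clusters on X in replicate 1, against 21.9% on 2L, 22.8% on 3L and 29.9% on 3R. In replicate 2 the shares were 8.17% on X, 18.1% on 2L, 15.9% on 3L and 25.5% on 3R. A higher cluster density by itself shortens gaps, and these differences were not tested. The shared part of the covered bases was 64.5% on X, 61.8% on 2L, 64.6% on 3L and 63.1% on 3R. Maps of these covered shares placed independently would share 11.5% on X, 5.57% on 2L, 5.15% on 3L and 3.78% on 3R, so these shared parts stand beside unequal baselines.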

How the data were processed

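Cluster positions are as deposited, 1-based, on FlyBase release 5 per the file headers. Bowtie 0.12.7 was used per the submitters' processing notes. Not given in the sources used here are the cluster caller, its threshold, the read filters and how the combined list was made. The score of each cluster is the authors' deposited value, on a scale the files do not define, and was compared only within a list or by rank. The lists hold no read counts, which leaves depth unknown and allows no counting interval. Clusters were assigned to a region by their midpoint, and shares were computed per base with Python 3.11.15, NumPy 2.4.6 and SciPy 1.17.1. The interval functions were tested on simulated maps. Interiors of 2L, 3L and 3R were cut with the same margins, and 2R was not analysed here. With 1 group of 2 ChIP samples, the one test made across samples was an exact permutation test of the differences between X and each arm within a replicate, added after the values were seen, which cannot reach 0.05. The windows and measures were chosen with earlier results of these data known. Named were the 10 longest combined clusters, the 5 longest domains and cluster-free stretches, the densest and sparsest 1 Mb bins and the 5 highest scores of each replicate. Exceptions are marked in the text. A gene annotation of release 5 was not used here.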

Additional observations from a re-analysis of the deposited data

How the results depend on the processing

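Of 48 recomputed values, 29 stayed within the SD of the replicates or, for counts, within 1.5 times, and 19 did not. The shared part has no spread of its own, so each change of it is counted among the 19. Some of the 29 were fixed in advance. With 2 replicates, leaving 1 out always moves the covered share, the free windows and the ratio by less than their SD. A minimum length of 2 kb cannot change the number of long clusters, nor can joining within 1 kb change the free windows. The count of 29 is thus no measure of stability. With clusters at or above their list's median score, the covered share was 11.4%, the cluster number 202, the shared part 55.7%, the share of free windows 83.6% and the ratio of X to the other interiors 2.93. That choice kept 18.5% and 30.1% of the X clusters of replicates 1 and 2, 14.2% and 18.2% on 2L, 16.01% and 19.6% on 3L and 9.01% and 14.4% on 3R. The cause of the lower shared part was not tested. With clusters of at least 2 kb, the cluster number was 499, free windows were 71.2% and the shared part was 65.2%. Joining clusters within 1 kb gave a shared part of 65.6%, and counting clusters with at least 50% of their length in the other replicate gave 65.1%. The share of free windows was 71.9% with windows of 2 kb and 54.1% with windows of 10 kb. Joining within 5 kb gave a mean of 56 domains of at least 20 kb, against 22 single clusters. The ratio was 1.95 against 2L, 2.11 against 3L and 2.83 against 3R alone. Without the densest 1 Mb bin, an alternative chosen after the data were seen, the number of long clusters was 14, the shared part 62.2% and the ratio 2.10. For this ratio the bin was left out of X only, and the other interiors kept their densest bins. Leaving out each replicate gave a covered share of 18.03 to 24.2%, 730 to 893 clusters, 58.9 to 68.7% free windows, 15 to 29 long clusters and a ratio of 2.18 to 2.29. The ratio stayed above 1 under every alternative run. No paired analysis was possible of ChIP against input by replicate number because no cluster list comes from an input.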
